A study of Mus musculus with 4 samples.

Results

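Of 168348 accessible regions on the 19 mouse autosomes, 24663 (14.7%) held a peak of the reprogramming intermediate and no peak of embryonic fibroblasts (MEF), of induced pluripotent cells (iPSC) or of embryonic stem cells (ESC). These regions were found by pooling the 4 deposited peak lists, joining peaks at most 10 bp apart, and keeping each joined region that held intermediate peaks only. They made up 37.5% of the 65745 regions with an intermediate peak (Wilson 95% interval 37.1 to 37.9). The presence or absence of listed peaks chose the regions, so these counts describe the choice and carry no test. Closed means here that a list names no peak at a site, which is not a measurement of its accessibility.

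The assay was ATAC-seq, which uses a transposase to cut open chromatin and tag it with sequencing adapters, with 1 library per population and 50000 cells stated for the assay. The intermediate came from Nanog-CreER reporter fibroblasts of the strain B6/129, which carried Rosa26-TdTomato from a B6 female and Col1a-OSKM from a 129 male. Doxycycline and 4OHT were present from day 1 to day 9, together with a JAK1 inhibitor at 0.5 µM, and tdTomato+ cells were sorted without MEF feeders. The title of that sample gives day 9, as the protocol does, while its source field gives day 6. Both the MEF and the iPSC carry the label A12 (Mbd3 flox/-) as strain and as transgene, and the ESC are of the line v6.5. The study asked about the state of cells on the way from fibroblasts to neural stem cells. The sort kept cells in which the Nanog-CreER reporter had been active, so unsorted cells were not part of the comparison. The strain label of the intermediate is shared with no other library, so strain and cell state cannot be told apart in any value below.

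OSKM stands for Oct4, Sox2, Klf4 and Myc, transcription factors that can return fibroblasts to pluripotency when expressed together. Oct4 and Sox2 bind DNA side by side at many enhancers of pluripotent cells, Klf4 binds GC-rich and CACCC-like elements and is also a factor of the epidermal barrier, and AP-1 (Fos and Jun dimers) holds open many fibroblast enhancers. Regions away from promoters that open in 1 cell type are often enhancers, while promoters with many CpG dinucleotides tend to be open in most cells. Sites that open during reprogramming and are closed in both the starting and the final cells are a known feature of OSKM expression.

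The lists held 130631 intermediate peaks, 155064 MEF peaks, 128931 iPSC peaks and 125858 ESC peaks, and read depth is unknown. Of 9 pluripotent marker genes, 6 had an intermediate peak within 1 kb of an end, against 0 in MEF, 9 in iPSC and 8 in ESC. Esrrb, Dppa4 and Dppa5a were the ones without such a peak in the intermediate, and Esrrb was also without one in ESC. Of 9 fibroblast markers (Acta2, Col3a1, Col6a3, Pdgfra, Pdgfrb, Postn, Runx1, Tagln, Twist2) the intermediate had such a peak at 0, MEF at 9, iPSC at 2 and ESC at 5. Of 8 epithelial markers (Cdh1, Cldn4, Cldn7, Esrp1, Grhl2, Ocln, Ovol1, Rab25) the intermediate had it at 8, MEF at 0, iPSC at 6 and ESC at 8. These panels are smaller than the gene lists used below and leave out genes such as Vim, Col1a1, Epcam and Krt8. The share of all genes with such a peak is not given, so the marker counts have no background. Of 5 neural markers the intermediate had it at 4, MEF at 3, iPSC at 5 and ESC at 5. Of 5 endothelial markers the intermediate had it at 1, MEF at 2, iPSC at 3 and ESC at 2, and of 5 myeloid markers the intermediate had it at 3, MEF at 3, iPSC at 2 and ESC at 2, where Ptprc, the pan-leukocyte marker, had none in any list.

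Few of the regions lay on promoters, and the ones that did are the members whose sequence can be read here. A promoter window spans 250 bases before and 50 after the start of a RefSeq gene (GRCm38.p6, the assembly that mm10 names), and 386 of 31396 such windows (1.23%) were overlapped by 356 of the regions. The windows of the 6 tallest such regions are shown first because they carry the strongest signal. Capitals mark matches to the 7-base or 6-base motifs ATGCAAA (Oct), AACAATG and ACAAAGG (Sox), GGGTGTG and GGGCGTG (Klf), CACGTG (Myc) and TGANTCA (AP-1), searched on both strands, so a match may appear as its reverse complement, and none of the motifs contains another. The window of 4931408C20Rik, a coding gene of unnamed function, is chr1:26687411-26687710, minus strand; that of Mndal, an interferon-inducible gene, is chr1:173880138-173880437, minus strand; that of Dst, which encodes the cytoskeletal linker dystonin, is chr1:34160010-34160309, plus strand. Those of the long non-coding RNAs Gm32164, Gm15551 and F930017D23Rik are chr7:90060413-90060712, minus strand, chr3:126668894-126669193, minus strand and chr10:43593177-43593476, plus strand.
4931408C20Rik: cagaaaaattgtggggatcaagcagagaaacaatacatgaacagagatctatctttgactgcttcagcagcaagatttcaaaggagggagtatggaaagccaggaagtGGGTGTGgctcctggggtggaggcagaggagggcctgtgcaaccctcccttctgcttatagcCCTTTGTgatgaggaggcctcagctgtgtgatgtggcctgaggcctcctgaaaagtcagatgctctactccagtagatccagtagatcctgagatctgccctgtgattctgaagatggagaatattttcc
Mndal: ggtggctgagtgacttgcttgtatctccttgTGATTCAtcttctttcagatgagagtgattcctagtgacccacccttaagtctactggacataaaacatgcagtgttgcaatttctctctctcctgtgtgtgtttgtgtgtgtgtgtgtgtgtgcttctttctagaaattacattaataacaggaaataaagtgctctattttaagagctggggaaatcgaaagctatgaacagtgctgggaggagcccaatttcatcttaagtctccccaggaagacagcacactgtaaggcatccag
Gm32164: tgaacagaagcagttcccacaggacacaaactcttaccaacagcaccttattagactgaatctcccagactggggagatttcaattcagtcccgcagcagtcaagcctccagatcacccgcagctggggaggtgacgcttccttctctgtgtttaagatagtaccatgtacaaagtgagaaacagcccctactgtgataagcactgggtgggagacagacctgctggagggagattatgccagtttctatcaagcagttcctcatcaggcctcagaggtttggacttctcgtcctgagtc
Gm15551: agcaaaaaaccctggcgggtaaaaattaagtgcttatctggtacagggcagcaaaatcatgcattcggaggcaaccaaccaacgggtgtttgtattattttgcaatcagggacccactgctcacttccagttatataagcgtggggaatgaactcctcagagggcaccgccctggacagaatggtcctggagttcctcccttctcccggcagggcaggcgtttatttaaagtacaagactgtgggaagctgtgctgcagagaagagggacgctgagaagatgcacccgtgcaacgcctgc
Dst: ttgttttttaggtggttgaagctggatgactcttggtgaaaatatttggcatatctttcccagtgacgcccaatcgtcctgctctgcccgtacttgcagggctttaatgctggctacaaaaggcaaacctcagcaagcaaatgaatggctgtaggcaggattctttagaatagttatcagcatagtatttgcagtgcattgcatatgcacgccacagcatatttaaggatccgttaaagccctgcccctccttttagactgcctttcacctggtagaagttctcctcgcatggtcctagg
F930017D23Rik: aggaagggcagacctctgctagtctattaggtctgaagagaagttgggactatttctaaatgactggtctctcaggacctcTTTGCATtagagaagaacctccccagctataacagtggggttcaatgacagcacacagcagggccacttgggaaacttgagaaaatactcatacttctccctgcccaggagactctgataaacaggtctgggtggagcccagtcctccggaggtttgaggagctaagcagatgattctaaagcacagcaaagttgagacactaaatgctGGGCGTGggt

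Windows of 4 further coding genes were chosen after their values were seen, 3 of them of keratinocytes or lining epithelia. They are Krtdap, a secreted protein of differentiating keratinocytes (chr7:30787655-30787954, plus strand), Trpv3, a heat-sensitive channel of keratinocytes (chr11:73267270-73267569, plus strand), Krt13, a keratin of the inner lining epithelia (chr11:100121517-100121816, minus strand), and Klf17, a Klf-family factor (chr4:117765617-117765916, minus strand).
Krtdap: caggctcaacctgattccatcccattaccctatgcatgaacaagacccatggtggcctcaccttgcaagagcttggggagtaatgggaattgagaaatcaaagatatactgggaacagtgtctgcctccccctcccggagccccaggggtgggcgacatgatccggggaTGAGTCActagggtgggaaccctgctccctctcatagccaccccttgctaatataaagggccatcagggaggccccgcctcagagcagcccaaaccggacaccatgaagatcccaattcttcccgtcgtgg
Trpv3: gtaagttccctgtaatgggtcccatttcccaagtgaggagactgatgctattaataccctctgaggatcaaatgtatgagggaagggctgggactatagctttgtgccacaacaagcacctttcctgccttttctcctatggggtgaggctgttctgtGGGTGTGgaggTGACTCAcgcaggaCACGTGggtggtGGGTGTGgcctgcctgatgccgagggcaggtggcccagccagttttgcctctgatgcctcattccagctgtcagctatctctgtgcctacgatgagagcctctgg
Krt13: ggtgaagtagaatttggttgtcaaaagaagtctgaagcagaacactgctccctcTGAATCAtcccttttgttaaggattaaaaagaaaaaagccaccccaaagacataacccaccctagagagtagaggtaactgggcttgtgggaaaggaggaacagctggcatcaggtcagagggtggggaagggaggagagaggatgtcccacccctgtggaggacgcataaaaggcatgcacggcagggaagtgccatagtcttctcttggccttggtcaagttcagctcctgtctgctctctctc
Klf17: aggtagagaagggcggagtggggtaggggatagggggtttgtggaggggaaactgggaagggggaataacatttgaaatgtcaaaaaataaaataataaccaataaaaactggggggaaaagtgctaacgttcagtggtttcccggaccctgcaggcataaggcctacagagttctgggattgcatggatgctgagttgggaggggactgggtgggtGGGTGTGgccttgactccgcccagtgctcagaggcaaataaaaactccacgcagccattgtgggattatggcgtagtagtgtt

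The tallest of all the regions covered the 4931408C20Rik window, with a height of 747 and its summit at position -100 from the gene start. Height is the authors' whole-number value per peak, is not scaled to library size, and serves here to rank peaks within a list. That window had a Klf match and a Sox match and 0 CpG dinucleotides, and the nearest peak of any other list lay 94.1 kb away. That distance was 2.1 kb at Mndal, 4.18 kb at Gm32164, 0.091 kb at Gm15551, 3.24 kb at Dst and 9.88 kb at F930017D23Rik. The region at Krtdap had a height of 200 and lay 0.941 kb from a peak of another list, that at Klf17 168 and 4.82 kb, that at Trpv3 156 and 13.3 kb, and that at Krt13 135 and 0.121 kb. The summit lay inside the window at Krtdap, Trpv3 and Krt13 and outside it at Klf17. The windows of Krtdap, Trpv3 and Krt13 held an AP-1 match, that of Trpv3 also 2 GGGTGTG matches and a CACGTG, and that of Klf17 a GGGTGTG match and no AP-1 match. Ranked among coding genes only, the other tall promoter regions were at Them5 (height 186), S100a16 (175), Ucn3 (149), Tmprss5 (135) and Tmprss11b, a protease of surface epithelia (129). Below these came Il17re (127), 2310057N15Rik (126), Apcs (124), Prx (108), Gm10639 (96), Crnn, the cornified-layer gene cornulin (94), Gast (89) and H2-M2 (89).

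These promoters were poor in CpG. The median ratio of observed to expected CpG was 0.193 over the 386 windows, against 0.228 in the 819 windows with a region open in MEF alone, 0.272 in the 449 of iPSC alone and 0.436 in the 281 of ESC alone. It was 0.787 in windows with a region open in all 4 libraries, 0.184 in windows with no peak and 0.389 in all windows. A ratio over 0.6 occurred in 3.37% of the windows (1.98 to 5.68), against 36.4% of all windows. Median GC content was 50% in the intermediate-alone windows, 50% in the MEF-alone ones and 51.3% in the iPSC-alone ones, so these 3 classes were alike in base composition.

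Of the Klf motifs, GGGTGTG was found more often in the intermediate-alone windows than in all windows. GGGCGTG was found less often than in all windows but more often than in windows with no peak. The AP-1 motif stood between the shares of the MEF-alone windows and all windows. GGGTGTG occurred in 15.3% (12.0 to 19.2) of the intermediate-alone windows, 8.91% (7.15 to 11.1) of the MEF-alone, 9.80% (7.38 to 12.9) of the iPSC-alone and 10.7% (7.58 to 14.8) of the ESC-alone windows, and in 8.00% of all windows. These intervals cover counting error over windows only, and with 1 library per population a difference between populations was not tested. TGANTCA also occurred in 15.3% (12.0 to 19.2), against 22.3% (19.6 to 25.3) in MEF alone, 7.80% in iPSC alone, 6.41% in ESC alone and 7.85% in all windows. Windows with a region of intermediate and MEF only held it in 27.9% (21.9 to 34.9). Both motifs occurred in 2.07% of the intermediate-alone windows (1.05 to 4.04), 2.20% of the MEF-alone windows and 0.643% of all windows. The CpG-containing variant GGGCGTG occurred in 3.63% (2.17 to 6.00) of the intermediate-alone windows, against 8.59% of all windows. Its share was 2.69% in MEF-alone, 4.45% in iPSC-alone and 6.05% in ESC-alone windows, and 16.6% in those open in all 4 libraries. Windows with no peak held GGGTGTG in 6.83%, TGANTCA in 10.2% and GGGCGTG in 1.69%. Their median CpG ratio was similar (0.184 against 0.193), but their median GC content was lower (46% against 50%). They are thus not matched in base composition.

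**Figure D1:**
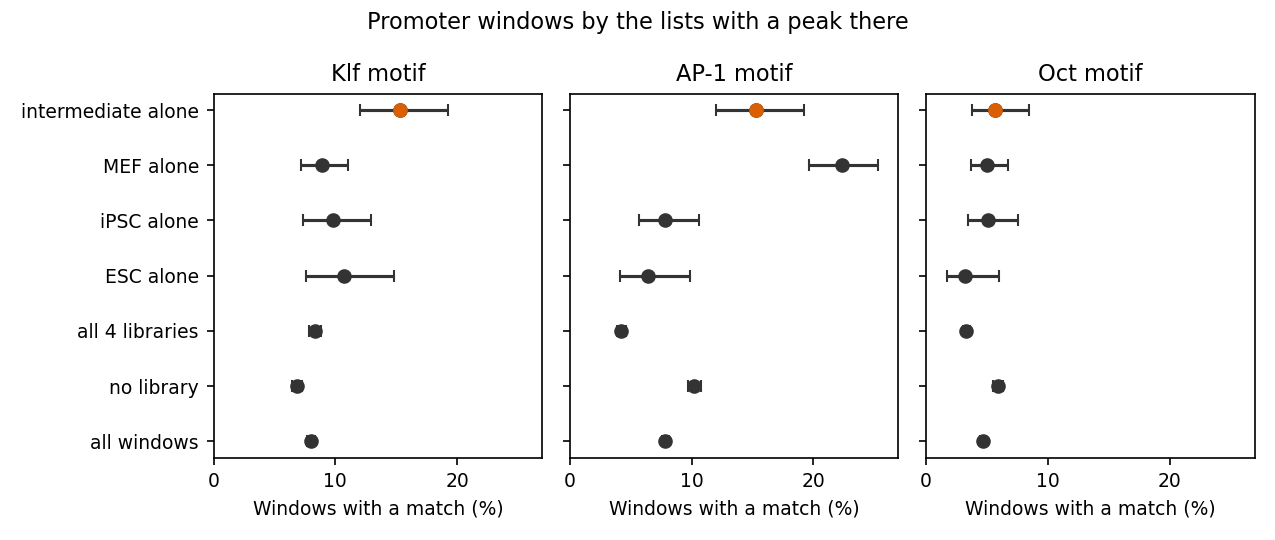
Share of promoter windows with a match to the Klf motif GGGTGTG, the AP-1 motif TGANTCA or the Oct motif ATGCAAA (%, horizontal axis), by the lists that had a region there (vertical axis); points are shares and bars are Wilson 95% intervals. The intermediate-alone windows sit at 15.3% for both the Klf and the AP-1 motif, and at 5.70% for the Oct motif.

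The Oct motif stood near its shares in all windows and in windows with no peak, while the Sox motif ACAAAGG stood above its share of all windows. ATGCAAA occurred in 5.70% (3.79 to 8.48) of the intermediate-alone windows, in 4.68% of all windows and in 5.88% of windows with no peak. It reached 8.87% in windows open in the intermediate, iPSC and ESC but closed in MEF. ACAAAGG occurred in 9.59% (7.03 to 12.9), against 5.82% of all windows and 7.15% of windows with no peak. Its share was 6.35% (4.87 to 8.23), 8.46% and 8.90% in the MEF-alone, iPSC-alone and ESC-alone windows. The other Sox motif, AACAATG, occurred in 4.92% (3.17 to 7.56), against 3.75% of all windows and 5.97% of windows with no peak. The Myc motif CACGTG occurred in 5.70% (3.79 to 8.48), against 7.14% of all windows and 4.19% of windows with no peak. A match shows only that these letters are in the window. The windows cover 356 of the 24663 regions, and the sequence of the others was not read here.

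The regions were lower than the rest of the intermediate list. Their median height was 42 (quartiles 33 and 60), against 61 for the intermediate peaks of the 41082 regions shared with another list. Their median width was 740 bp (590 and 920), and they covered 18.9 Mb in all. Widths of shared regions include the peaks of the other lists and are not set beside these. A single peak made up 55.1% of them, and 1741 (7.06%) had a height over 100. The unscaled median heights of regions in 1 other list alone were 39 for MEF, 39 for iPSC and 30 for ESC, which do not measure a difference in accessibility.

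Some tall regions of the intermediate list were nevertheless found nowhere else. In 4 groups of equal size by height, 56.7% of the lowest intermediate regions, 43.3% of the second group, 33.4% of the third and 16.6% (16.1 to 17.2) of the tallest were open in no other list. The tallest groups of the other lists had 30.4% in MEF, 6.39% in iPSC and 1.31% in ESC. In every height group the intermediate share lay below that of MEF and above those of iPSC and ESC. Such a share depends on which lists are compared. The iPSC and ESC are both pluripotent, so each list can remove regions of the other. The order of the shares therefore does not place the intermediate between these cell states.

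**Figure D2:**
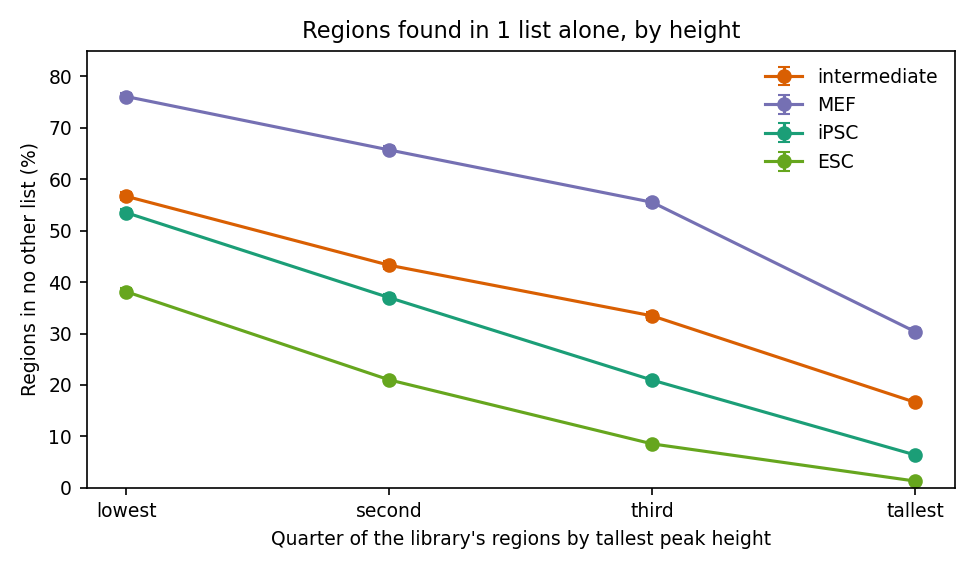
Share of each library's regions that were found in no other list (%, vertical axis) in 4 groups of equal size by the region's tallest peak height (horizontal axis); bars are Wilson 95% intervals and are mostly smaller than the points. In the tallest group the intermediate stands at 16.6%, MEF at 30.4%, iPSC at 6.39% and ESC at 1.31%.

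The nearest peak of another list lay a median of 4141 bp away (quartiles 1451 and 9746), against 5441 bp for regions of MEF alone, 5241 bp for iPSC alone and 3921 bp for ESC alone. Within 1 kb of such a peak lay 19.1% of the regions, against 14.8% for MEF alone, 16.8% for iPSC alone and 21.5% for ESC alone, and 401 had none within 50 kb. The list with the nearest peak was MEF for 40.9% of the regions, iPSC for 32.9% and ESC for 27.8%, ties counted for each. These lists held 155064, 128931 and 125858 peaks, and a longer list offers more peaks to be nearest. The shares were not scaled to list length. Among the regions just kept by the rule were 308 with such a peak 11 to 50 bp away, whose median height was 29. Just left out were 436 intermediate stretches that overlapped no other peak but had one within 10 bp, with a median height of 12.

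The regions lay away from gene ends. Of the 24663, 89.7% (89.3 to 90.1) were over 1 kb from an end of any RefSeq gene, against 62.2% (61.8 to 62.7) of the intermediate regions shared with another list and 34.5% of the regions open in all 4 libraries. Regions found in a single other list had nearly the same share, at 89.7% for MEF, 90.4% for iPSC and 88.0% for ESC. In the 4 height groups of the intermediate list, from the lowest to the tallest, the share was 88.9%, 90.2%, 90.3% and 89.7% of the intermediate-alone regions, against 74.7%, 72.7%, 64.4% and 46.9% of the shared ones. The tallest group is open upward, and the intermediate-alone regions in it reach 747. Inside protein-coding genes and over 1 kb from an end lay 47.2% of the regions, and outside them 42.5%. Median heights were 42 and 43 in these positions and 41 within 1 kb of an end.

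**Figure D3:**
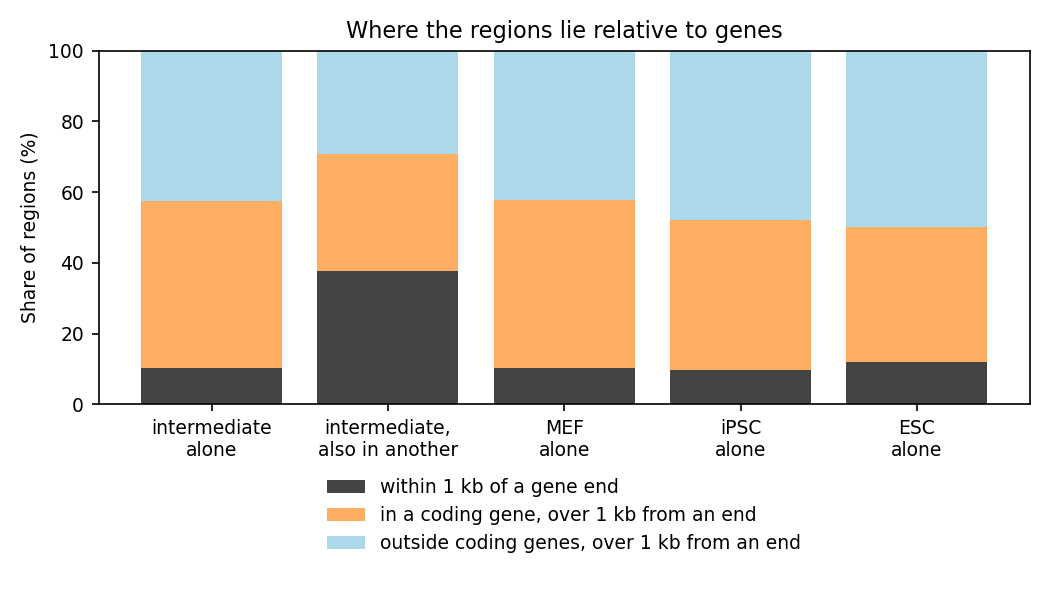
Share of regions (%, vertical axis) within 1 kb of a gene end, inside a protein-coding gene but over 1 kb from an end, or outside such genes and over 1 kb from an end, for the regions named on the horizontal axis. Within 1 kb of a gene end lay 10.3% of the intermediate-alone regions and 37.8% of the intermediate regions shared with another list.

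Every chromosome held such regions, and they stood next to each other more often than their share of all regions. The share of intermediate regions open in no other list ran from 30.8% on chromosome 19 to 40.8% on chromosome 1, and 2380 of 2411 bins of 1 Mb held at least 1, with a median of 9 per bin. For 28.6% (28.1 to 29.2) of the regions the nearest region on the chromosome was another intermediate-alone region, which is 1.95 times their 14.7% share of all regions. The corresponding ratio was 1.67 for MEF alone, 1.76 for iPSC alone and 2.16 for ESC alone. Without joining abutting peaks the share was 70.7%, since sub-peaks of 1 site then count as neighbours.

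The densest stretch was on chromosome 11, in a bin that contains the zinc transporter gene Slc39a11. The bin from 113 to 114 Mb held 70 of the regions among 110 intermediate regions, against 40 regions of MEF alone, 8 of iPSC alone and 3 of ESC alone. At the 14 regions of that bin open in all 4 libraries, the median log2 ratio of the intermediate height to the median of the other 3 heights was 0.18, and over the autosomes it was -0.11. Within this bin, 20 regions, stitched at the distance customary for super-enhancers, formed the largest cluster, chr11:113085111-113206730. Its nearest coding genes are Slc39a11 on one side, 38.1 kb away, and Sox9 on the other, 297 kb away and outside the bin. The cluster holds 4 long non-coding RNA genes. The intermediate list had 67 peaks in the cluster, MEF 16, iPSC 20 and ESC 10. The bin and the cluster were chosen for their intermediate-alone regions, so an excess of intermediate peaks in them follows from the choice.

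**Figure D4:**
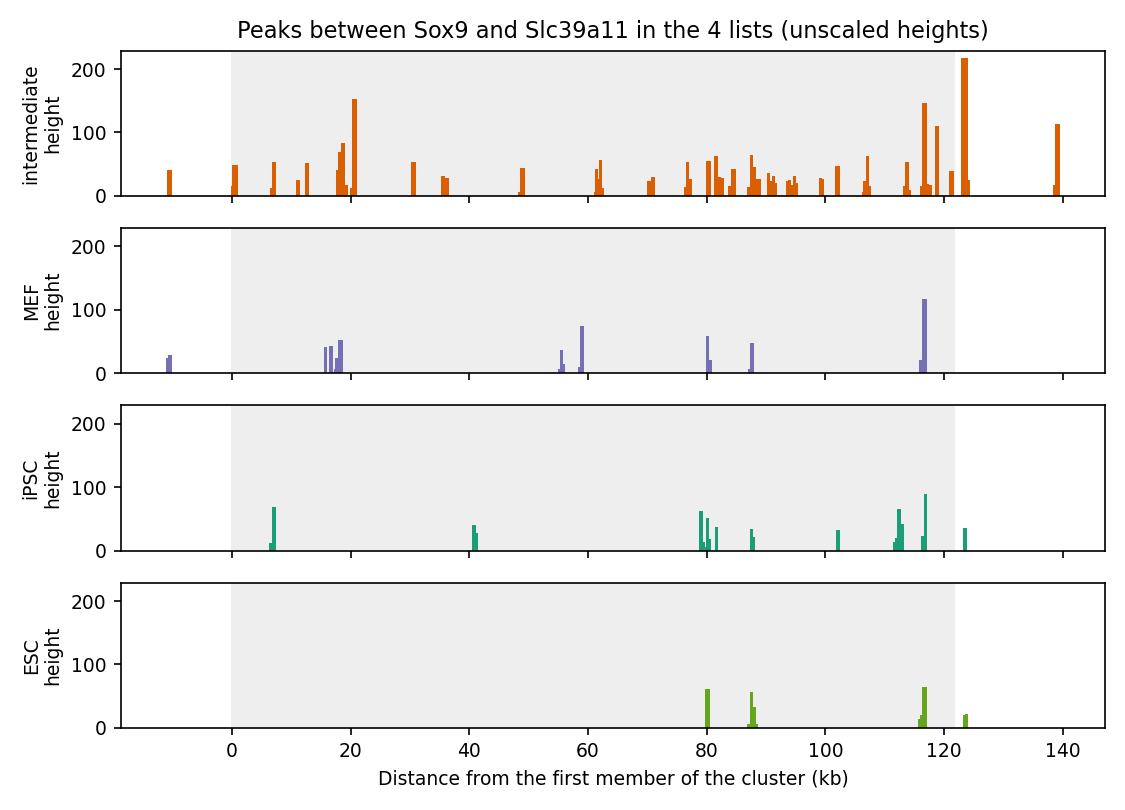
Peak heights (authors' unscaled values, vertical axes) in the 4 lists along the cluster between Sox9 and Slc39a11, by distance from the start of its first member (kb, horizontal axis); each bar is a peak at its own width, drawn at least 0.5 kb wide, and grey marks the cluster. The intermediate list has 67 peaks inside the grey span, MEF 16, iPSC 20 and ESC 10, in a cluster chosen for its intermediate-alone regions.

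In all, 187 clusters of at least 5 regions held 1091 of the regions (4.42%). MEF alone had 844 clusters with 12.2% of its 43065 regions. For iPSC alone there were 61 with 1.51% of 22745 regions, and for ESC alone 10 with 0.471% of 11665. The next largest clusters lay at Ptpn14, a phosphatase that restrains Yap signalling (12 regions, chr1:189773171-189844860), at Mroh4 (10, chr15:74591451-74624020), at Sorcs2, a sortilin-family receptor (10, chr5:36112791-36156540), and at Mical3, an actin-regulating oxidoreductase (10, chr6:120992191-121038590). Inside the Ptpn14 cluster MEF had 7 regions, iPSC 2 and ESC 3, and inside the Mical3 cluster MEF had 1, iPSC 2 and ESC 1. Inside the Mroh4 and Sorcs2 clusters MEF had 1 each and iPSC and ESC 0. These clusters were likewise chosen for their intermediate-alone regions, which favours low counts of the other lists. The number of clustered regions depended on the distances used, from 220 with gaps of at most 5 kb to 12234 without joining abutting peaks.

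Counted within 20 kb of the gene body, the regions were most numerous at Slc39a11, with 37, against 17 of MEF alone, 1 of iPSC alone and 1 of ESC alone. Its tallest lay inside the gene, chr11:113558981-113560020, height 223. Gpc6, a cell-surface proteoglycan gene of 1055 kb, had 31, Nav2 27 and the forkhead factor gene Foxp1 26. Auts2, Mical3 and Zbtb7c had 24 each, followed by Ptprg (20), Tenm4 (19), Wwox (19) and Cacna1a, Cacna1c, Itpr1, Macrod2 and Abcc4 with 18 to 17. A count of this kind grows with gene length, and several of these genes had as many regions of another list: Nav2 had 36 of MEF alone, Auts2 35, Macrod2 35 and Cacna1c 31. Mical3, Zbtb7c and Abcc4 did not, with 7, 11 and 2 of MEF alone and 2, 3 and 4 of iPSC alone. With joining at up to 500 bp the count was 17 at Nav2 and 9 at Abcc4, and with the taller 50% of the intermediate list it was 13 at Ptprg.

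Genes with at least 10 regions were also ranked by regions per length. A short gene that passes this limit ranks high by construction. Mroh4 had 15.5 regions per 100 kb of gene and flanks (11 regions, against 1 of MEF alone, 0 of iPSC alone and 1 of ESC alone). Lgr6, an R-spondin receptor that marks stem cells of the hair follicle, had 9.87 (16 regions, against 5, 1 and 1 of MEF, iPSC and ESC alone). Ap1s3 had 9.51, Kremen1, a co-receptor of the Wnt inhibitor Dkk1, had 9.08, and Otog, the gene of an inner ear matrix protein, had 9.05, with 10 regions each. The longer genes Mical3 (8.5, 242 kb) and Slc39a11 (8.31, 405 kb) were also among the 10 genes with the most per length. So were Gdpd5 (8.3), Itpk1 (7.94) and Gng12 (7.88). Counted in the gene body alone, Mroh4 had 7, Otog 6, Gdpd5 6 and Kremen1 4, with the taller 50% of the intermediate list Kremen1 and Itpk1 had 5 each, and with joining at up to 500 bp Itpk1 had 7 and Gdpd5 6. Otog had 0 of MEF alone, 1 of iPSC alone and 0 of ESC alone.

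Chromosome 1 held many of the tallest regions. After the 4931408C20Rik promoter came a region 7.29 kb from Tex35 (chr1:157090491-157091850, height 575) and one 21.1 kb from Slamf9 (chr1:172436361-172437510, height 404). Those nearest to non-coding genes lay in Gm39615 (height 330), 69.9 kb from Gm37041 (324), 5.49 kb from Gm24221 (295) and in Gm7103 (283). Others lay 1.28 kb from Adgrf2 (height 327), 2.32 kb from the Wnt co-receptor gene Lrp6 (311), inside Prxl2a (301), Inpp5d (294), Trim68 (294), Dpp10 (277) and Trim50 (277), and at Mndal (283). Chromosome 1 held 7 of the 15 tallest and 15 of the 111 regions over a height of 200 (13.5%), against 8.77% of all 24663. Over the same unscaled height MEF alone had 125 regions, 13 of them on chromosome 1, iPSC alone had 78 with 7 there, and ESC alone 14 with 0 there.

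Genes of the stratified epidermis often had a region nearby. Of 20 such genes, 18 (90%) had an intermediate-alone region within 20 kb, against 54.3% of the 20665 protein-coding genes on the autosomes. For regions of MEF alone the count was 16 of 20 beside 64.3% of coding genes, for iPSC alone 7 beside 42.2% and for ESC alone 12 beside 37.4%. Pkp1, a desmosome plaque protein, had 8 regions (MEF alone 4, iPSC alone 0, ESC alone 0), the tallest inside the gene with height 85. Ehf, an Ets factor of epithelia, had 6 (0, 4 and 0 of MEF, iPSC and ESC alone), and the grainyhead factor gene Grhl1 had 4 (2, 0 and 0 of MEF, iPSC and ESC alone), with heights up to 101 and 175. The hemidesmosome genes Col17a1 and Itgb4 had 5 and 4, with regions 15.3 and 10.6 kb away of heights 158 and 118, beside 5 and 3 of MEF alone, 0 and 0 of iPSC alone and 0 and 2 of ESC alone. Trp63, the p63 factor that maintains epidermal stem cells, had 1 region of height 31 beside 5 of MEF alone. The basal keratin genes Krt5 and Krt14 had 1 and 2, beside 2 and 1 of MEF alone and 2 and 1 of ESC alone. Elf3 and Klf5 had 0.

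Genes of simple epithelia were closer to the background, at 12 of 18 (66.7%), beside 13 for MEF alone, 7 for iPSC alone and 12 for ESC alone. Grhl2, which keeps epithelial genes active, had 8 regions (MEF alone 2, iPSC alone 2, ESC alone 2). Cdh1, the E-cadherin gene, had 4, against 1, 2 and 4 of MEF, iPSC and ESC alone. Krt8 and Cldn6 also had 4, Krt8 against 1, 0 and 0 of MEF, iPSC and ESC alone and Cldn6 against 0, 0 and 1 of MEF, iPSC and ESC alone. The tallest, of height 99, lay inside Epcam, chr17:87638471-87640840. Krt18, Ocln, Ovol1, Ovol2, Cldn3 and Esrp2 had 0.

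**Figure D5:**
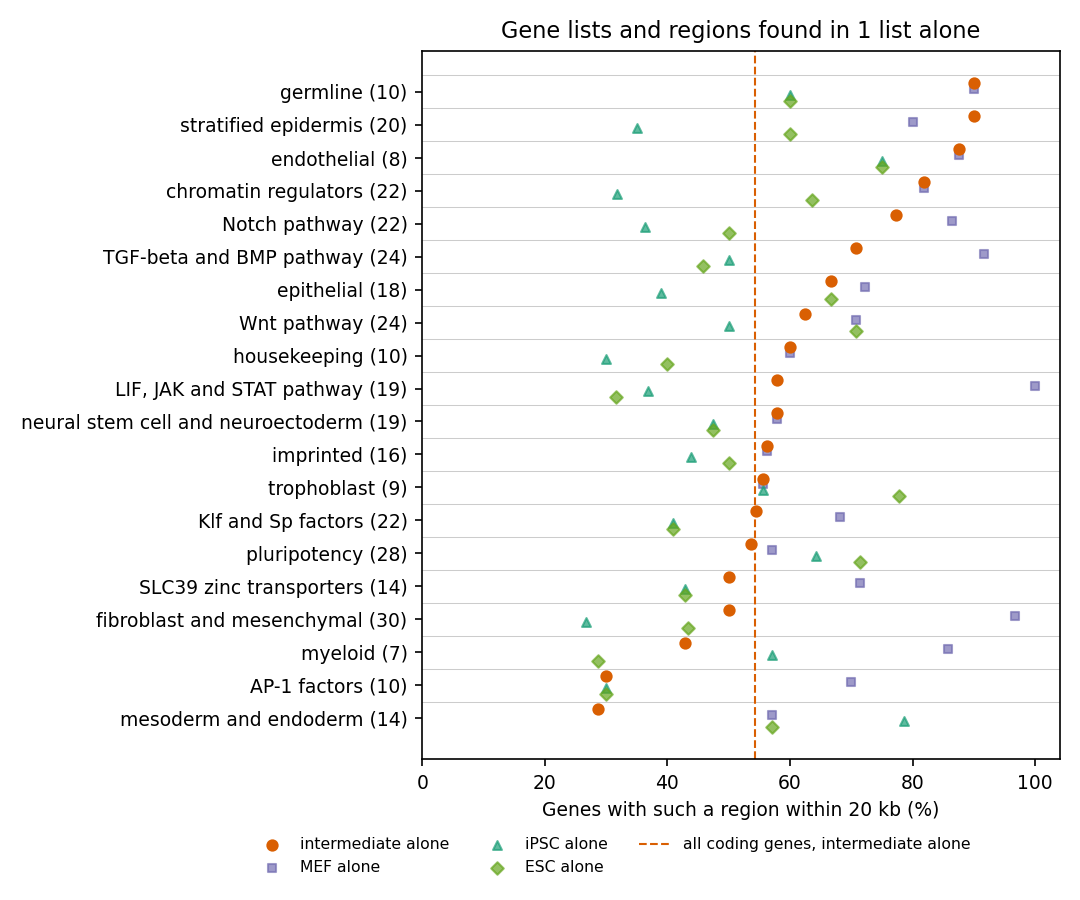
Share of the genes of each list described here (number of genes in brackets) with a region found in 1 list alone within 20 kb of the gene body (%, horizontal axis), for regions of the intermediate, MEF, iPSC and ESC; the dashed line is the share over all protein-coding genes for the intermediate, 54.3%. Stratified epidermis and germline stand at 90% for the intermediate, and mesoderm and endoderm at 28.6%.

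Among regulators of chromatin, 18 of 22 genes (81.8%) had a region. The count was 18 for MEF alone, 7 (31.8%) for iPSC alone and 14 (63.6%) for ESC alone. Over all coding genes the share was 54.3% for the intermediate, 64.3% for MEF, 42.2% for iPSC and 37.4% for ESC alone. Tet2 and Tet3, enzymes that oxidise methylated cytosine, led with 9 and 8, against 0 and 4 of MEF alone, 3 and 0 of iPSC alone and 2 and 1 of ESC alone. Dnmt1, the maintenance methyltransferase gene, had 3. Kmt2d had 4, and Hdac2, Ep300, Dnmt3b and Eed had 0.

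In the Notch pathway 17 of 22 genes (77.3%) had an intermediate-alone region, beside 19 for MEF alone, 8 for iPSC alone and 11 for ESC alone. The co-activator Maml3 had 10, the receptors Notch2 and Notch1 5 and 4, and the target Hes1 had 2, one of them 12.6 kb away with height 230. Counted in the gene body alone, 6 of the 22 genes had one, beside 29.2% of coding genes. In the TGF-beta and BMP pathway the count was 17 of 24 (70.8%) beside 22 for MEF alone, with 5 at the repressor Ski, 5 at the inhibitory Smad6 and a tallest region of 233 inside Smad4. In the Wnt pathway it was 15 of 24 (62.5%) beside 17 for MEF alone, 12 for iPSC alone and 17 for ESC alone, with 9 at the co-receptor Lrp5, 7 at the factor Lef1, where iPSC alone also had 7, and 6 at Lrp6. In the LIF, JAK and STAT pathway it was 11 of 19 (57.9%), near the background, beside 19 of 19 for MEF alone, and it was 7 of 19 with the taller 50% of the intermediate list, beside 46.2% of coding genes. Jak1, whose product was inhibited in these cultures, had 3 beside 11 of MEF alone.

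Klf and Sp factors had a region at 12 of 22 (54.5%), close to the background. Klf12, a long gene of a repressor, had 14 (MEF alone 2, iPSC alone 8, ESC alone 2), and Sp8 had 4, against 0 in each other list. SLC39 zinc transporters had one at 7 of 14 (50%), imprinted genes at 9 of 16 (56.2%) and housekeeping genes at 6 of 10 (60%), near the 54.3% of all coding genes. AP-1 factors had one at 3 of 10 (30%), with 3 at Fosb and 2 at Jund.

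Genes of other lineages varied, beside 54.3% of all coding genes for the intermediate and 64.3%, 42.2% and 37.4% for MEF, iPSC and ESC alone. Germline genes had a region at 9 of 10, beside 9 for MEF alone, 6 for iPSC alone and 6 for ESC alone, with 4 at Mael and 4 at Kit, and the tallest, of height 183, inside Piwil2, all genes of germ cell development or piRNA function. Counted in the gene body alone, 2 of the 10 germline genes had one, beside 29.2% of coding genes. Endothelial genes had one at 7 of 8 (87.5%), beside 7, 6 and 6 of MEF, iPSC and ESC alone, led by Vwf with 6. Of 19 neural stem cell and neuroectoderm genes 11 (57.9%) had one, with 7 at Prom1 and 2 each at Sox9 and Fabp7. Trophoblast genes had one at 5 of 9 (55.6%), with 7 at Elf5, a factor of trophoblast and mammary epithelium. Myeloid genes had one at 3 of 7 (42.9%). Mesoderm and endoderm genes had one at 4 of 14 (28.6%), beside 8 for MEF alone, 11 for iPSC alone and 8 for ESC alone. Fibroblast and mesenchymal genes had one at 15 of 30, beside 29 of 30 for MEF alone, with 5 at Runx1 against 18 there.

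Pluripotency genes had a region at 15 of 28 (53.6%), close to the background, beside 16 for MEF alone, 18 for iPSC alone and 20 for ESC alone. None lay within 20 kb of Pou5f1, Sox2 or Myc. Klf4 had 1, chr4:55523301-55524230, 2.91 kb from the gene, with height 68. Nanog had 2, the taller 17.5 kb away with height 47, and MEF alone had 0 there, iPSC alone 3 and ESC alone 0. Tet2 with 9 and Nr5a2 with 4 had the most, and the tallest lay inside Tet2 and 6.56 kb from the Nodal antagonist Lefty2, both of height 122.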

How the data were processed

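The authors deposited a list of peaks for each library that gives start, end, summit and height, per the file headers. Heights are whole numbers of signal, at least 5, with no scaling to depth in the deposited files, and were used to rank peaks within a list; where heights of several lists stand side by side they are unscaled. Tools named in the submitters' processing notes are MACS 1.4.2-1, Picard, Bowtie2 and CASAVA 1.8.2, with build mm10 and without roles or parameters. How peaks were called and divided sets every count. Peaks on the autosomes were joined across lists where at most 10 bp apart with Python 3.11.15, numpy 2.4.6 and pandas 2.3.3, after a check on simulated data. Genes and promoter sequences came from RefSeq (GRCm38.p6), and both ends of a gene stood for its start, since that table gives no strand. A region counted for every gene within 20 kb of its body. With 1 library per population no test was run, no p-value is given, and Wilson intervals cover counting error only. The members, gene lists and comparisons were chosen with earlier results of these data known. Of 361 listed genes, 354 lay on the autosomes; 1 list and some listed genes are not reported here. Named are the 15 genes with the most regions, the 10 with the most per 100 kb among those with at least 10, genes nearest the 15 tallest, leading genes of the lists (not every one of the 2 per list is given), the 5 largest clusters and the 6 tallest promoter windows. Genes named beyond these, such as list members at 0, were chosen after their values were seen. Alternatives were other joining distances, height limits, list lengths, lists left out, the X chromosome and other gene windows.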

Additional observations from a re-analysis of the deposited data

Results flagged for a closer look

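The X chromosome lies outside the regions described above and also held regions open in the intermediate alone. There were 717 among 1622 intermediate regions (44.2%), against 631 of 1245 in MEF (50.7%), 764 of 2462 in iPSC (31.0%) and 357 of 2108 in ESC (16.9%). It is listed here because the comparisons did not use that chromosome. With the X chromosome included, 37.7% of all intermediate regions were open in no other list.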

How the results depend on the processing

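The count of 24663 regions stayed within 1.5 times under every alternative tried except 1: without joining abutting peaks it was 45687. Their share of intermediate regions was then 52.0%, and 35.6% and 33.3% with joining at up to 100 and 500 bp. It was 39.4% with the taller 50% of each list, 33.7% with the taller 50% of the intermediate list against all peaks of the others, and 44.0%, 42.4% and 43.4% with the MEF, iPSC or ESC list left out. In the tallest height group the share was 20.7%, 15.9% and 14.4% at 0, 100 and 500 bp and 15.4% with the taller 50% of the intermediate list.

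The share over 1 kb from a gene end was 89.1% at 0 bp, 90.6% at 500 bp, 90.3% with the taller 50% of the intermediate list, 88.9%, 89.3% and 89.1% without the MEF, iPSC or ESC list, and 80.1% beyond 2.5 kb. Inside protein-coding genes lay 53.7% at 0 bp and 51.4% at 500 bp, against 52.4% as reported. The nearest region was another such region in 70.7%, 21.7% and 20.01% at 0, 100 and 500 bp and in 20.2% with the taller 50% of the intermediate list. Clusters held 12234, 661 and 362 regions at those distances, 407 with the taller 50% and 220 with gaps of at most 5 kb. Of protein-coding genes, 49.6% had a region at 500 bp, 46.2% with the taller 50%, 29.2% counting the gene body only and 86.9% within 100 kb.

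In promoter windows with a summit inside, the AP-1 motif was found in 19.8%, and the Klf motif in 18.8%. Of 21 gene lists, the count of genes stayed within 1.5 times for 21 at 500 bp, 20 with the taller 50%, 8 with the gene body only and 12 within 100 kb. No paired analysis was possible because each group has 1 library. Depth is unknown, so a site closed in a list may hold signal under the authors' threshold.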

Other observations

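Families of genes picked by symbol, after their values were seen, varied in how often they had such a region, beside 54.3% of all protein-coding genes. Where genes of a family lie close together, the same region can count for several of them. For example, 6 regions reached 10 of 15 S100a genes. The genes of a family are therefore not separate observations. Kallikreins, secreted serine proteases of skin and glands, had an intermediate-alone region within 20 kb at 20 of 27 genes (74.1%), with 24 regions in all, against 10 of MEF alone, 4 of iPSC alone and 1 of ESC alone. The tallest lay 0.067 kb from Klk13 with height 155. Gasdermins, pore-forming proteins of epithelia, had 11 regions at 7 of 9 genes (77.8%), against 5, 4 and 4 of MEF, iPSC and ESC alone, and the tallest, near Gsdmc2, had height 178. Desmogleins and desmocollins, the cadherins of desmosomes, had 12 at 8 of 9 genes (88.9%), against 6, 8 and 3 of MEF, iPSC and ESC alone. Tmprss proteases had 28 regions at 13 of 17 genes (76.5%), against 24, 21 and 12 of MEF, iPSC and ESC alone. These counts depend on the window and the joining: in the gene body alone kallikreins had 11, gasdermins 3 and Tmprss proteases 17, and with joining at up to 500 bp desmogleins and desmocollins had 7. Of the 13 families, 1 stayed within 1.5 times with the gene body alone and 4 within 100 kb.

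Other families of surface epithelia, and the Hox genes, had more regions of MEF alone by count. These counts are not scaled to the unlike totals of 43065 MEF-alone and 24663 intermediate-alone regions. Keratins had 24 intermediate-alone regions at 49.1% of genes, against 41 of MEF alone (69.8% of genes), 2 of iPSC alone and 6 of ESC alone. Serpinb protease inhibitors had 18 at 46.4%, against 23, 6 and 6 of MEF, iPSC and ESC alone, with MEF alone at 32.1% of genes. Ly6, Lypd and Slurp proteins had 28 at 52.9%, against 30, 7 and 6, with MEF alone at 73.5% of genes. Sprr and Lce cornified envelope genes had 10 at 34.3%, against 15, 2 and 5 of MEF, iPSC and ESC alone, with MEF alone at 51.4%. S100a genes had 6 at 66.7%, against 10, 2 and 3 of MEF, iPSC and ESC alone, with MEF alone at 60%. Hox genes had 6 at 23.1%, against 25, 7 and 13, with MEF alone at 79.5%.

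Families expressed in sensory neurons also held regions of each list. Olfactory receptor genes had 148 intermediate-alone regions at 18.1% of genes, against 121, 143 and 105 of MEF, iPSC and ESC alone, and vomeronasal receptor genes 51 at 13.8%, against 22, 78 and 55. Zfp genes had 289 at 43.7%, against 401, 239 and 193. Members of these families can be near-identical, so their counts are uncertain.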
